A study of Homo sapiens with 4 samples.

Results

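The high gained regions are places in the genome of SW480 cells where ATF3 signal stood high in both cystine-restricted libraries and was listed in neither full-medium library. They number 932 of 44826 regions, which is 2.08%, and make up 16.4% of the 5685 regions gained in this way at any height. SW480 is an established line from a human colorectal adenocarcinoma. Full medium or cystine-restricted medium was given for 24 h, and 2 libraries were made from each. Each library was made by CUT&Tag from about 100000 cells with an antibody to ATF3, and no other treatment or genotype is named for either medium. The line is a single cultured line, the labels do not say whether the libraries of a medium came from separate cultures, and no library without the antibody was used here.

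ATF3 is a bZIP transcription factor, one of the ATF/CREB group, that binds DNA as a dimer with itself or with other bZIP proteins at AP-1-like and CRE-like sites. Its gene is switched on by many stresses, among them amino acid shortage, in which the kinase GCN2 and the factor ATF4 act upstream of it. Cystine is the oxidised form in which cells take up cysteine, the amino acid that limits glutathione synthesis, and glutathione in turn lets GPX4 detoxify lipid peroxides and hold off ferroptosis. In CUT&Tag a transposase tethered to the antibody cuts and tags the DNA beside the bound protein, so tags pile up around a binding site.

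The members were chosen from the peak lists themselves. Peaks of the 4 lists on chromosomes 1 to 22 and X were merged where they shared 1 bp or more. The summit pileup (tags stacked at the top of a peak) and the local background behind each peak were worked out from its fold enrichment and −log10 p. The height of a peak is its summit pileup divided by the genome background of its library, the pileup expected anywhere in the genome, which was 1.298 tags for cystine-restricted replicate 1, 1.08 for cystine-restricted replicate 2, 1.11 for full-medium replicate 1 and 1.32 for full-medium replicate 2. A member has a peak in both cystine-restricted lists with a height of 16 or more in each, which takes at least 21 tags in replicate 1 and 18 in replicate 2, and no overlapping peak in either full-medium list. Heights under cystine restriction and absence under full medium are therefore what chose the members. They are given as a description, with no test, and 2 libraries against 2 would in any case not allow an exact two-sided permutation p under 0.33.

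The cystine-restricted lists held 33838 and 29607 peaks in replicates 1 and 2, and the full-medium lists 17447 and 19132. Absence from a full-medium list is to be read beside this difference in list length. Of the 10331 regions present in all 4 lists, 92.0% were also higher under cystine restriction. Among all merged regions 12.7% were gained at any height. Among the 10066 regions that reached a height of 16 in both cystine-restricted lists, the 932 members made up 9.26%. Of the other regions of that height, 7710 had a peak in all 4 lists and 1424 in 1 of the full-medium lists. The members' share was 20.4% (297 of 1453) where the lower of the 2 heights was between 16 and 18, 12.1% (234 of 1938) between 20 and 24, and 1.22% (32 of 2615) at 40 and above. High regions with no full-medium peak were thus for the most part of moderate height.

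Most members were of moderate height, with a median summit pileup of 29 tags in cystine-restricted replicate 1 and 23 tags in replicate 2. In cystine-restricted replicate 1 their heights ran from 16.2 to 90.2 with a median of 22.3, and in replicate 2 from 16.6 to 102.4 with a median of 21.2. The lower of the 2 heights was 20 or more in 472 members, 30 or more in 106 and 50 or more in 12. Of the regions just inside the limit, 5 with tied lower heights all had 21 tags in replicate 1 (height 16.2) and 19 to 23 tags in replicate 2. Just outside, 5 regions with tied lower heights all had 17 tags in replicate 2 (height 15.7) and 22 to 37 tags in replicate 1, so a difference of 1 tag in a library separated the sides.

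**Figure D1:**
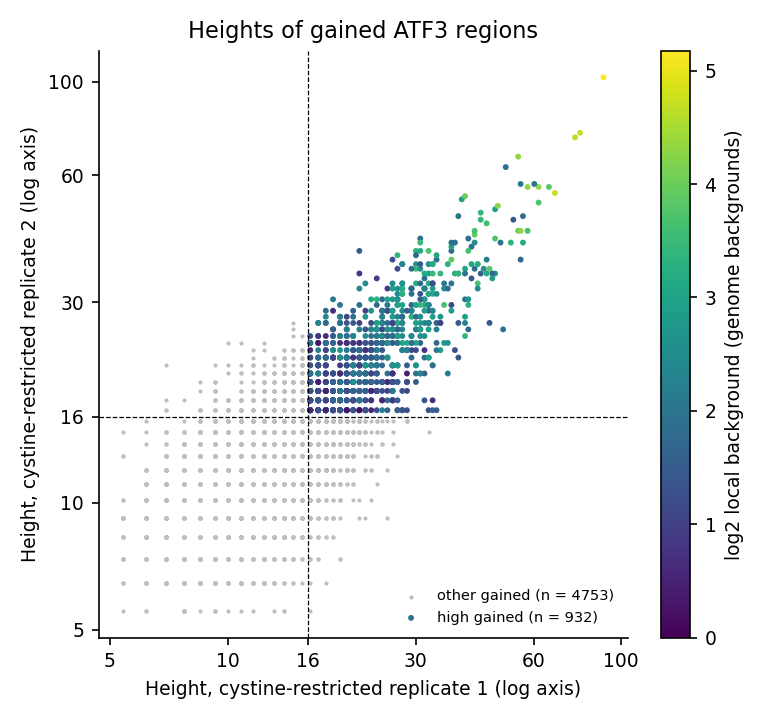
Height in cystine-restricted replicate 2 against height in replicate 1 for every gained region, both axes logarithmic; grey points are the 4753 other gained regions, coloured points the 932 members, with the colour giving the log2 of the local background, and dashed lines mark a height of 16. The members follow the diagonal, and those with a height over 70 in both libraries have local backgrounds of 25.04 to 36.1.

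The cystine-restricted libraries gave the members similar heights, and in 481 of 932 summits within 20 bp of each other. The height in replicate 1 divided by that in replicate 2 had a median of 1.02 (interquartile range 0.91 to 1.15), and the heights lay within a factor of 1.5 of each other in 890 members. Only 1 member differed by more than a factor of 2. The rule required a height of 16 in both libraries, which limits how far apart they can be. The position of the summit was not part of the rule, but the rule merges overlapping peaks, whose width limits how far apart summits can lie. Peak widths were not matched in the comparisons of summits. The summits of the 2 libraries were a median of 19 bp apart and at most 602 bp. The share with summits within 20 bp was 51.6% in the members and 28.2% in the other gained regions. In the regions of height 16 or more present in all 4 lists it was 52.7%. These classes had median heights of 22.3, 11.6 and 33.9 in replicate 1, so the pooled shares are not matched in height. At lower heights of 16 to 18 the share was 46.8% in the members and 40.1% in the regions present in all 4 lists. Of the height ranges, only that of 30 to 40 had the lower share in the members, at 52.7% against 53.3%. Summits over 150 bp apart were found in 140 members.

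The 20 highest members, ranked by the lower of their 2 heights, fell into unlike kinds. The difference lay in the local background, the pileup expected from the tags in the surrounding 10 kb, given here as a multiple of the genome background and averaged geometrically over the cystine-restricted libraries. It was 10 or more in 14 of these 20 and under 5 in only 5, against a median of 3.27 over all members and 10 or more in 42 of 932. This matters for what a missing full-medium peak shows, because the pileup a caller needs before it lists a peak grows with the local background.

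The highest member of all lay on a dense background. It was on chromosome 7 from 73892243 to 73892660 (hg19), with 117 and 111 tags at the summit in cystine-restricted replicates 1 and 2 and heights of 90.2 and 102.4. Its local background was 36.1 genome backgrounds, the highest among the members, so its fold enrichment was only 2.32 and 2.97. The next, on chromosome 20 from 43985928 to 43986400, had heights of 78.6 and 75.6 on a background of 26.04. The third, on chromosome 8 from 129188003 to 129188435, had heights of 76.3 and 73.8 on a background of 25.04. In each of these 3 regions a region present in all 4 lists lay close by, at 1840, 600 and 275 bp.

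Members of the other kind had local backgrounds under 5. Among those named here, all but the chromosome 17 member were still above the median background of 3.27 over all members. On chromosome 21 from 40823836 to 40825120 the heights were 60.1 and 57.2 on a background of 4.09, and the fold enrichment was 12.06 and 12.05. On chromosome 10 from 73025781 to 73026796 the heights were 55.5 and 57.2 on a background of 4.20. On chromosome 1 from 183577276 to 183577966 they were 50.9 and 62.7 on a background of 4.002. These regions were 1285, 1016 and 691 bp wide, and the nearest region present in all 4 lists was 102169, 47314 and 13700 bp away. A second member on chromosome 21, from 41214410 to 41215374, had heights of 56.2 and 48.0 on a background of 3.73. On chromosome 17 from 10350374 to 10351176 the heights were 53.2 and 47.0 on a background of 2.67, with summits at the same base, 10350893, in both libraries. No full-medium peak was listed within 14183 bp of any of these 5 members. Which genes lie at these positions was not analysed here.

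A peak that is not listed is not a peak of height 0. For each member the greatest summit pileup that a full-medium list could hold without listing it was computed, from the lowest −log10 p in that list (3.88 and 3.83 in full-medium replicates 1 and 2) and the member's local background under cystine restriction, scaled to the depth of the full-medium library. This greatest unlisted height is called the missable height, taking the larger of the 2 full-medium libraries. Dividing the lower cystine-restricted height by it gives the least ratio, the smallest difference between the media that the absence of a listed peak leaves room for. A peak narrower than 150 bp, the narrowest that any list holds, could exceed the missable height and still go unlisted.

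The missable height of the members had a median of 9.94 and ran from 5.42 to 57.8. In tags this was a median of 11 in full-medium replicate 1 and 13 in replicate 2. The least ratio had a median of 1.95 (interquartile range 1.63 to 2.45) and ran from 1.02 to 5.21. It was 1.5 or more in 773 of 932 members (82.9%), 2 or more in 431 (46.2%), 3 or more in 82 (8.80%) and 4 or more in 8. In the remaining 159 members the lists left room for a full-medium height less than 1.5 times below the cystine-restricted height. For scale, the regions of height 16 or more listed in all 4 libraries had a measured ratio of the lower cystine-restricted to the higher full-medium height with a median of 1.27 (interquartile range 1.07 to 1.52), and 474 of 7710 (6.15%) reached 2. In the height range of 16 to 24 the median was 1.17 in 2661 regions listed in all 4 libraries, beside a median least ratio of 1.95 in 694 members. These ratios rest on the contrast that chose the members and are set side by side without a test.

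**Figure D2:**
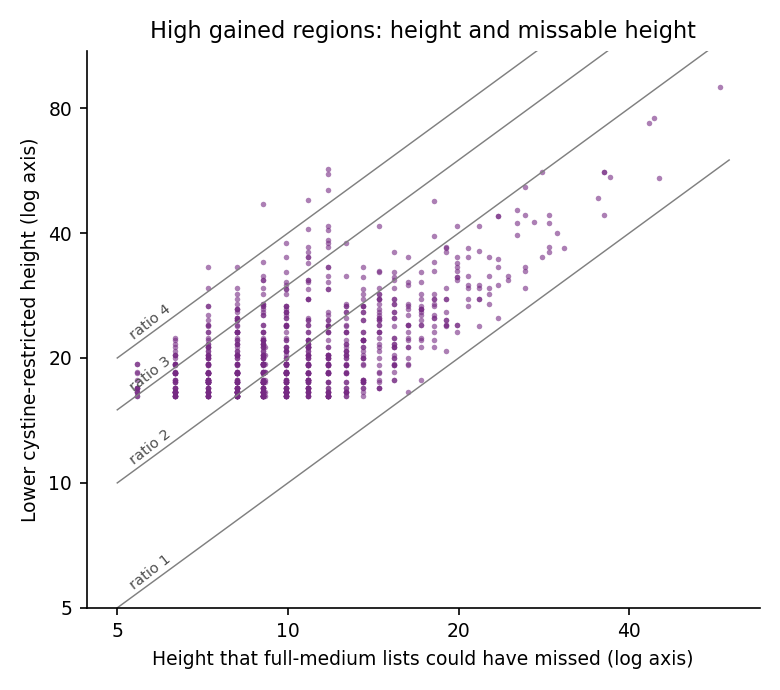
The lower cystine-restricted height of each of the 932 members against its missable height, the greatest height a full-medium list could hold without listing it, both axes logarithmic. Lines mark ratios of 1, 2, 3 and 4. All members lie above the line of ratio 1 and 431 on or above the line of ratio 2, while the highest members at the right edge stay under it.

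Height and least ratio did not rank the members alike. The highest member, on chromosome 7, could have reached a height of 57.8 in full medium without being listed, which leaves a least ratio of 1.56. The member on chromosome 11 from 65256749 to 65257101 had heights of 67.8 and 54.4 and a least ratio of 1.20. The member on chromosome 21 from 9848138 to 9848395 had heights of 55.5 and 44.3 and a least ratio of 1.22. Of the 20 highest members, 7 had a least ratio of 2 or more and 4 had one under 1.5. The highest least ratio, 5.21, belonged to the chromosome 17 member at 10350374, where 69 and 51 tags under cystine restriction stood against at most 10 and 11 unlisted tags in full-medium replicates 1 and 2. The chromosome 21 member at 40823836 followed with 4.87, from 78 and 62 tags against at most 13 and 15. The chromosome 10 member at 73025781 had 4.72, the second chromosome 21 member 4.42 and the chromosome 1 member at 183577276 had 4.33.

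The least ratio also brought forward members that height alone placed lower. On chromosome 8 from 28982660 to 28983449 the heights were 33.1 and 33.2, rank 68, and the least ratio was 4.58. On chromosome 6 from 158810131 to 158810831 they were 32.4 and 29.5, and the least ratio was 4.08. On chromosome 15 from 79198317 to 79198773 they were 33.1 and 33.2, and the least ratio was 4.07. These 3 complete the 8 members with a least ratio of 4 or more. They were chosen by this ratio after its values had been seen.

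**Figure D3:**
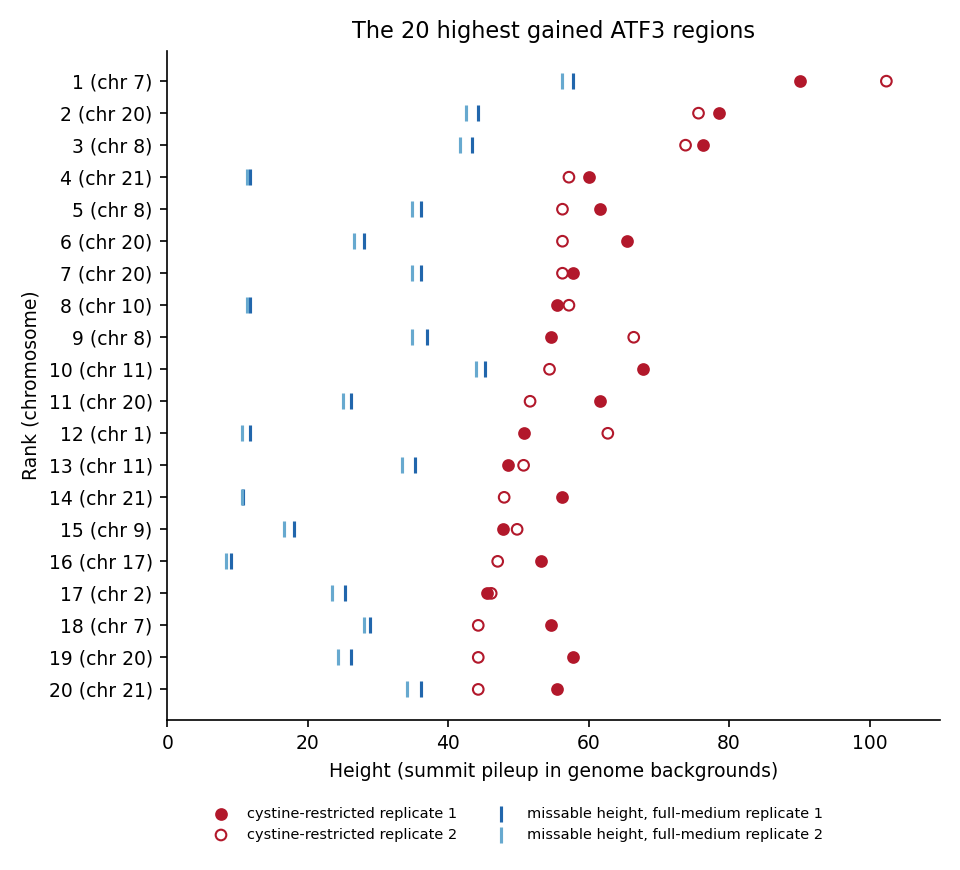
Heights of the 20 highest members in cystine-restricted replicates 1 (filled) and 2 (open), with blue ticks at the height each full-medium list could have missed. The ticks stand between 8.34 and 57.8. The members of ranks 4, 8, 12, 14 and 16 have ticks under 12, far to the left of their circles.

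The 82 members with a least ratio of 3 or more lay on 22 chromosomes. They were wide and isolated beside the members as a whole, with summits that nearly coincided. Their median heights were 27.4 and 26.8 in the cystine-restricted libraries, their median local background was 2.08, and their peaks were a median of 709 and 669.5 bp wide. The nearest full-medium peak was a median of 61339.5 bp away, and the summits of the 2 libraries differed by a median of 10 bp. The 159 members with a least ratio under 1.5 had median heights of 22.3 and 22.1, a median background of 6.07 and peaks of 324 and 285 bp, and the nearest full-medium peak was a median of 1324 bp away. The local background enters the least ratio, so the backgrounds of these groups differ by construction. Its window of 10 kb takes in tags of neighbours, so the distances to full-medium peaks are tied to the ratio as well. Peak widths and summit distances were not compared between these groups at equal height or background. The regions of height 16 or more in all 4 lists had wider peaks than either group, at medians of 831 and 762.5 bp.

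The members were parted by local background into 4 sets of 233, and height, width and surroundings differed between the sets together. In the set of lowest background, from 1 to 2.38, the median heights were 20.03 and 19.4, the median fold enrichment 7.93 and 7.62, and the median peak width 582 and 510 bp. In the set of highest background, from 4.84 to 36.1, the median heights were 27.7 and 27.7, the fold enrichment 3.42 and 3.66, and the peak width 304 and 269 bp. The median least ratio was 2.62, 2.04, 1.73 and 1.49 from the lowest set to the highest. A least ratio of 2 or more was reached by 223, 128, 63 and 17 members of these sets in turn. From set to set the median peak was narrower, and less could be read from its absence from the full-medium lists.

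Only 8 members stood 16 or more times above their own local background in both libraries. Besides those at chromosome 17 and at chromosome 8 from 28982660, they ranked between 426 and 837 of 932 by height. The member on chromosome 14 from 33124723 to 33124891 had heights of 23.1 and 19.4 at the genome background itself, with no full-medium peak within 452331 bp. The member on chromosome 4 from 68873197 to 68873367 had heights of 18.5 and 25.8, also at the genome background. Both of these were narrow, at 169 and 171 bp. The member on chromosome 6 from 153041744 to 153042357 had heights of 28.5 and 20.3, and that on chromosome 1 from 173238656 to 173239330 had 20.8 and 18.5. Another on chromosome 8, from 12006250 to 12007031, had 27.0 and 16.6, and that on chromosome 15 from 68476087 to 68476715 had 21.6 and 16.6.

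The full-medium background near the members could be read where a full-medium peak was listed close by. For 253 members such a peak lay within 2 kb in full-medium replicate 1, and the local background at that peak was a median of 0.72 times the member's background under cystine restriction, both in genome backgrounds. For 258 members with a peak within 2 kb in replicate 2 the median was 0.64. The full-medium background was the lower in 243 of 253 and in 253 of 258. This background was read at the neighbouring peak and not at the member itself. If it holds at the member too, the scaled background overstated the missable height at most of these members. The same comparison of backgrounds was not made at other regions. At the 205 members with a close peak in both full-medium lists, the median least ratio was 1.61 with the scaled background and 2.04 with the background read in full medium, and 25 and 110 of them reached 2.

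Many members sat beside ATF3 signal that full medium also had. A full-medium peak lay within 1 kb of 222 members (23.8%), within 10 kb of 566 (60.7%) and within 100 kb of 852, which leaves 80 with none. These shares are given for the members alone, and whether they differ from those of other regions was not analysed here. Of the 222 with a peak within 1 kb, 137 had one in both full-medium lists, and for 132 the neighbour was a region present in all 4 lists. The median heights of these neighbouring regions were 33.5 and 32.7 under cystine restriction and, where listed, 22.6 and 19.7 in full medium. Over all 932 members the median heights were 22.3 and 21.2 under cystine restriction. The heights of the 222 members by themselves were not set against those of their neighbours. The median local background was 4.96 in these 222 members and 2.93 in the other 710, and the median least ratio was 1.68 and 2.08.

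A region present in all 4 lists lay within 10 kb of 392 members, or 42.1% (95% Wilson interval 38.9 to 45.3). This share was 11.8% (10.96 to 12.8) for the other gained regions and 28.7% (27.7 to 29.8) for the regions of height 16 or more that were themselves in all 4 lists. The members' share was 24.6% when merging by a reciprocal overlap of 50%, 27.8% when only peaks reaching a −log10 q of 5 were kept and 28.5% without members of local background 5 or more, and the other classes were not recomputed under these settings. By lower height it was 33.0%, 30.1%, 42.7%, 59.8%, 58.1% and 71.9% of members in the ranges that start at 16, 18, 20, 24, 30 and 40. The regions in all 4 lists had 20.2% in the first of these ranges and 34.8% in the last. The members' share rose through the 4 sets of local background, from 9.44% in the set of lowest background to 85.4% in that of the highest. The background window of 10 kb takes in tags of such neighbours, and a high background in turn hinders listing in full medium, so the share is tied to the rule. The intervals cover counting error over regions, which are not replicates.

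**Figure D4:**
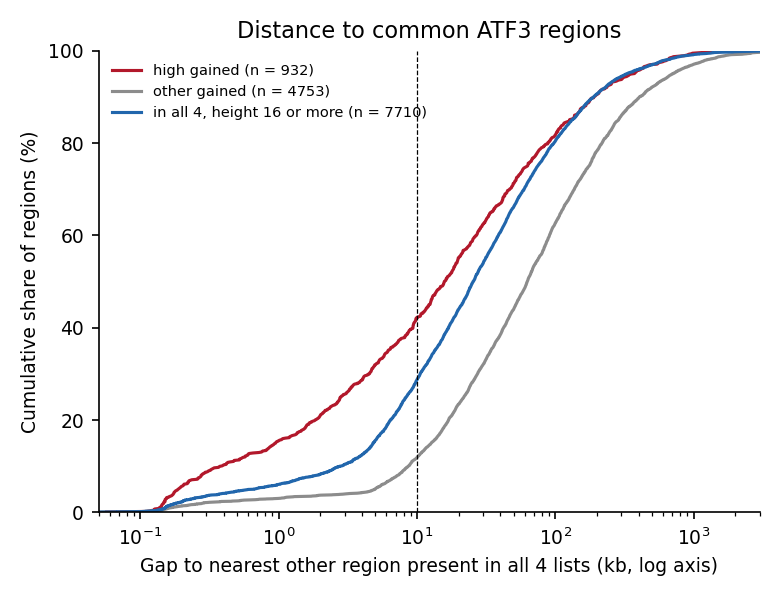
Cumulative share of regions by the distance to the nearest other region present in all 4 lists, in kb on a logarithmic axis, for members, other gained regions and regions of height 16 or more in all 4 lists; the dashed line marks 10 kb. At that distance the curves stand at 42.1%, 11.8% and 28.7%.

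The neighbours themselves were higher under cystine restriction. The 370 distinct regions in all 4 lists that were nearest to a member within 10 kb had median heights of 42.0 and 38.7 in the cystine-restricted libraries and 26.2 and 23.9 in the full-medium libraries. Their change, the log2 of the mean cystine-restricted over the mean full-medium height (geometric means), had a median of 0.62 (interquartile range 0.39 to 0.89) and was above 0 in 355 of 370 (95.9%). Over all 10331 regions in all 4 lists the median was 0.53 (interquartile range 0.29 to 0.78), with 92.0% above 0. The interquartile ranges overlapped for most of their length.

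Within single lists, the members' peaks had smaller median widths than those of regions in the same height range that full medium shared. At lower heights of 16 to 18 the median peak width in cystine-restricted replicate 1 was 430 bp in 297 members and 641 bp in 769 regions present in all 4 lists, and in replicate 2 it was 413 and 561 bp. At lower heights of 30 to 40 it was 426 and 837 bp in replicate 1 and 436.5 and 777 bp in replicate 2. The range of 40 and above has no upper end and is not matched in height, with median heights of 53.9 and 48.4 in the members and 65.5 and 61.8 in the regions present in all 4 lists. The same order held in all 6 height ranges in both libraries. Over the same 6 ranges the members' median local background was the higher, 2.63 against 2.08 in the first and 12.6 against 6.31 in the last. A wider region has more room to touch a full-medium peak, and the rule leaves out any that does. The widths are thus tied to the rule, and the part of the rule and of the background in them was not tested. Several peaks within 1 region in a cystine-restricted list were found in 67 members (7.19%), against 13.0% of the regions of height 16 or more in all 4 lists. These pooled shares are not matched in height. The members had the lower share in every range under 40, but at 40 and above it was 12.5% against 9.71%. Members were merged from 2 lists and the other regions from 4, which was not adjusted for.

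Members were found on all 23 chromosomes, with the most on chromosomes 2 (87), 1 (76), 20 (71), 7 (70) and 17 (70) and the fewest on chromosome 18 (5). As a share of the regions of height 16 or more in both cystine-restricted lists, chromosome 20 had 71 of 530, or 13.4% (95% Wilson interval 10.8 to 16.6), and chromosome 15 had 29 of 220, or 13.2% (9.34 to 18.3). Chromosome 18 had 5 of 134, or 3.73% (1.60 to 8.44), and chromosome 19 had 40 of 639, or 6.26% (4.63 to 8.41). On these 4 chromosomes the interval left out the 9.26% found over all. It did so by a hair on chromosome 5, with 65 of 557, or 11.7% (9.262 to 14.6). Regions are not independent, and no test was made. Chromosome 20 held 5 of the 20 highest members, and its members had a median local background of 3.69 and a median least ratio of 1.81. Chromosome 21, which carries CBS, the gene of cystathionine beta-synthase named in the title of the series, held 16 members, or 8.99% (5.61 to 14.1) of its high regions. Whether a member lies at CBS was not analysed here.

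**Figure D5:**
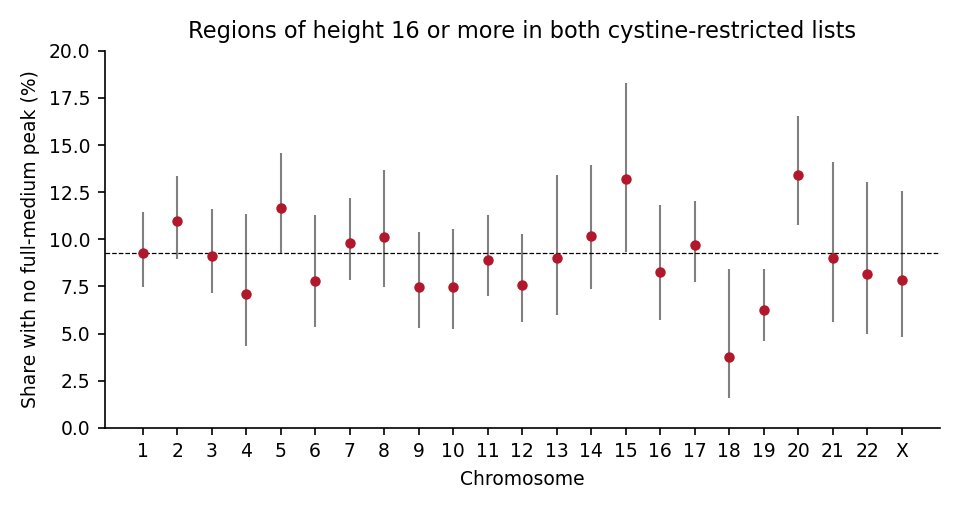
Share of regions of height 16 or more in both cystine-restricted lists that had no full-medium peak, per chromosome; points are percentages, bars 95% Wilson intervals over regions, and the dashed line is the 9.26% over all chromosomes. Chromosomes 15 and 20 stand highest and chromosome 18 lowest.

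Most members had no other member within 100 kb. Joined at gaps of up to 100 kb they formed 778 groups, 658 of them of a single member, and 86 members (9.23%) lay in 26 groups of 3 or more. Among the other gained regions 18.3% lay in such groups and among the regions of height 16 or more in all 4 lists 55.9%, but those classes hold more regions, 4753 and 7710, which by itself brings them closer together. A gained region of any height lay within 10 kb of 19.2% of members. This share was 11.5% for the other gained regions and 11.1% for the regions of height 16 or more in all 4 lists. The classes were not matched in height. The largest group had 5 members, on chromosome 5 from 141704599 to 141909930. Their lower heights ran from 21.6 to 43.9 and their least ratios from 1.71 to 2.94, and all 5 gained regions in this stretch of 205.3 kb were members, beside 4 regions present in all 4 lists.

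On chromosome 8 a stretch that takes in all 3 of its groups of 3 or more was chosen after its values were seen. Between 126510168 and 129195810 lay 14 of the 37 members of this chromosome, among them 3 of the 20 highest. The 3 groups spanned 21, 20 and 6 regions of any kind, of which 4, 4 and 3 were members. How many regions of any kind lay in the whole stretch was not counted, so a concentration of members cannot be read from it. The lower heights of the 14 members ran from 16.6 to 73.8 on local backgrounds of 2.01 to 25.04 with a median of 7.42. Their least ratios ran from 1.17 to 2.30 with a median of 1.59, against a median of 2.65 at a median background of 2.01 in the other members of the chromosome. Within it, 4 members from 126510168 to 126618958 had lower heights of 22.1 to 56.3, and 2 of these, from 126569972 to 126570131 and from 126570620 to 126571326, lay 489 bp apart. The high local background moves with the heights here, and its part in them was not tested.

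Other groups of 3 differed in background. On chromosome 9 from 33794623 to 33836727, 3 members with lower heights of 19.3 to 37.0 had a median background of 3.71 and least ratios of 2.81 to 3.15. On chromosome 1 from 209826401 to 209847802, 3 members with lower heights of 24.9 to 28.6 had a median background of 5.53 and least ratios of 1.92 to 3.06, and this stretch of 21.4 kb held no region present in all 4 lists. On chromosome 11 from 34260181 to 34330182, 3 members had lower heights of 26.2 to 26.8, a median background of 3.07 and least ratios of 1.53 to 2.69. On chromosome 17 from 70387467 to 70407642, 3 members with lower heights of 20.03 to 37.0 had a median background of 10.3 and least ratios of 1.23 to 1.40.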

How the data were processed

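ATF3 CUT&Tag libraries of SW480 cells, 2 per medium, were given as 4 peak lists, and the samples were grouped by their titles. The submitters' processing notes name the build hg19 and the tools MACS2 2.2.7.1, BWA 0.7.17, fastp 0.19.7 and bcl2fastq 2.17, without options. In the deposited files, called per library, each peak has a fold enrichment (a ratio), a −log10 p and a −log10 q (at least 1.303 throughout) and a score of 10 times the −log10 q. These are the authors' own per-peak values. A narrowPeak list gives no depth; it was recovered as the genome background, the lowest background in a list.

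Whole pileups and backgrounds solved from fold and −log10 p matched 100% of peaks within 0.1%, and recovery and selection were checked on simulated data. The simulated regions stood at the genome background and left a gap around the height limit. Selection was thus not checked on raised backgrounds or close to that limit. Because the local background is counted over 10 kb, peaks near strong ones need a higher pileup to be listed. The computations were run in Python 3.11.15 with pandas 2.3.3, scipy 1.17.1 and numpy 2.4.6.

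The members, the gene lists, the alternatives and the rules were chosen with earlier results of these data known. Regions named are the 20 highest, those beside the height limit, and, chosen after their values were seen, those of greatest least ratio, of height 16 over their own background, and in groups. Motifs, start sites, gene and marker lists and sequences need an annotation or genome of hg19 and were not analysed here. Alternatives were other height limits, merging by reciprocal overlap, stricter or equal peak lists, a 1 kb margin, the local background, removal of extreme folds, each library left out, and same-numbered pairs. Same-numbered libraries did not deviate together (correlation of deviations 0.01 over 10331 regions), and 2 numbers are too few to pair samples.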

Additional observations from a re-analysis of the deposited data

Results flagged for a closer look

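Peaks outside chromosomes 1 to 22 and X are used in none of the comparisons above, and the same rule applied to them found a signal. Of 395 merged regions on unplaced or alternate contigs and chromosome Y, 23 were gained and 9 of these reached a height of 16 in both cystine-restricted libraries. Of these 9, 3 had heights of over 200 in both, at 369.1 and 326.6, 346.7 and 357.0, and 212.7 and 200.2 in cystine-restricted replicates 1 and 2, with fold enrichments of only 1.51 to 2.12. The other 6 had heights of 16.6 to 31.4.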

How the results depend on the processing

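The number of members, 932, became 2044 at a height limit of 12 and 472 at 20, 1555 with a reciprocal overlap of 50%, 1522 at a −log10 q of at least 5, which also thins the full-medium lists, and 8 with the pileup over the local background. It stayed within a factor of 1.5 with equal numbers of peaks (757). It also did so without members near a full-medium peak (710), without the 1% of highest fold (930), and without members of local background 5 or more (715, added after the data were seen). These removals only take members away and show nothing about the stability of the rest. With 1 library left out the number of members was 1559 to 2426, fewer libraries being required. All 932 members overlapped a region so called in each case, which the looser rule makes certain and which shows nothing about their stability. Within pairs (replicate block) it was 3869 in pair 1 and 2722 in pair 2.

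The median merged width, 533.5 bp, was 697 with reciprocal overlap, 639.5 at the stricter q, 598 with equal numbers, 588 with the 1 kb margin, 652 over local background, 592 without high local backgrounds, 366.5 to 603.5 with a library left out, and 445 and 400 in the pairs (replicate block). The share with a region in all lists within 10 kb, 42.1%, was 30.1% and 51.9% at limits of 12 and 20, 24.6% with reciprocal overlap, 27.8% at the stricter q, 30.5% with equal numbers, 31.8% with the 1 kb margin, 0% over local background, 71.2% within 50 kb, 28.5% without high local backgrounds, 43.2% to 45.9% with a library left out, and 47.7% and 49.5% in the pairs (replicate block). The median ratio of heights, 1.02, was 1.03 with reciprocal overlap and 1.16 over local background. The median least ratio, 1.95, was 1.84 at a limit of 12, 2.27 with reciprocal overlap, 1.32 at the stricter q, 1.86 with equal numbers, 2.08 with the 1 kb margin, 3.41 over local background, 3.69 with the genome background alone, 2.13 without high local backgrounds, 1.94 to 2.19 with a library left out, and 2.05 and 2.21 in the pairs (replicate block). Where no cause is given above, the cause was not tested. Motif and start-site shares were not run. Depth limits the members near the height limit, where 1 tag decides.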
